A study of Ovis aries with 16 samples.

Results

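Amnion from sheep pregnancies in which lactated Ringer's solution was given was compared with amnion from pregnancies in which it was not. The solution is a balanced mix of sodium, potassium and calcium salts with lactate. Members were chosen by treatment label alone: 8 libraries with the solution (the UDR and IA groups) and 8 without it (the C and UD groups), which together are all 16 libraries of the series. Every ewe carried 1 fetus and had been fitted, at a mean gestational age of 121 days of a term of 145 to 150 days, with catheters in maternal and fetal vessels, the amniotic fluid and the fetal bladder. The controls carried these catheters too. The treatments then ran for 2 days. The labels name the C group as the control and list no treatment for it. Animals of the UD group lost their urine to drainage without replacement. Those of the UDR group lost it as well and received the solution in equal volume. Those of the IA group received the solution continuously into the amniotic cavity, at a daily rate of 2 liters, with no drainage named. There were 4 animals to a group and 1 RNA-seq library to an animal. The labels give a rate for IA only, so the amount given in UDR was not analysed here. The 4 groups cross 2 treatments, the solution given or not and urine drained or kept. The solution can thus be examined once with drainage (UDR minus UD) and once without it (IA minus C). In UDR it replaced urine in equal volume, and in IA it was infused at a set rate. These 2 comparisons therefore differ in more than drainage.

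The amnion is the inner, avascular membrane of the sac, a sheet of epithelium on a thin layer of connective tissue. Amniotic fluid comes largely from fetal urine and lung liquid. It leaves by fetal swallowing and by transfer across the amnion into the vessels of the fetal surface, the intramembranous route, which is thought to run in part through vesicles that cross the epithelial cells. Infusion adds to the fluid, and replacement puts a salt solution in the place of urine. The title of the series names the vesicular transport pathway under altered intramembranous transfer as its subject.

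The table names genes by Ensembl sheep ID only. None of its 25197 IDs matched the 35057 genes of the reference table used here (assembly ARS-UI_Ramb_v3.0), so genes are given by ID, pathway lists could not be counted, and the tissue label could not be checked against marker genes of the amnion or of other cell types. In bulk tissue, fewer cells of a type and less RNA per cell cannot be told apart.

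The libraries held 12245460 to 30767263 counts, and the genes tested took 99.2% to 99.9% of them. The libraries given the solution held a mean of 18854700 counts (SD 6120600, n = 8) and the others 15204300 (SD 2340410, n = 8), a difference that did not pass an exact permutation test over all allocations of the libraries (p = 0.151, adjusted p = 0.906 over 6 measures, two-sided). UDR 2 and UDR 3 were sequenced in 2 lanes and their runs were summed. With the first runs alone the difference in total counts was -118345 (exact permutation p = 0.914), and that in genes detected was -184 in place of 51.4. The number of genes detected was 16764 (SD 430) with the solution and 16713 (SD 335) without it (exact permutation p = 0.792, adjusted p = 0.9997). The 10 most abundant genes took 11.8% (SD 4.64) and 12.2% (SD 5.003) of the counts (exact permutation p = 0.854, adjusted p = 0.9997).

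The strongest axes of variation crossed the 2 sets of libraries. On the first principal component of log2 CPM (gene counts scaled to a common library size), which held 35.5% of the variance, the libraries that stood apart were IA 2 at 168.7, UD 1 at 108.9 and UD 4 at 57.4. One of these was given the solution and the others were not. On the second, with 21.6%, they were UDR 3 at 105.9, UDR 2 at 87.5, UD 2 at 78.8 and C 1 at 41.7, again from both sets. The mean scores of the 2 sets differed by -3.26 on the first component, 19.5 on the second and -0.016 on the third, with exact permutation p-values of 0.925, 0.463 and 0.9997 (adjusted p = 0.9997 for each).

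**Figure D1:**
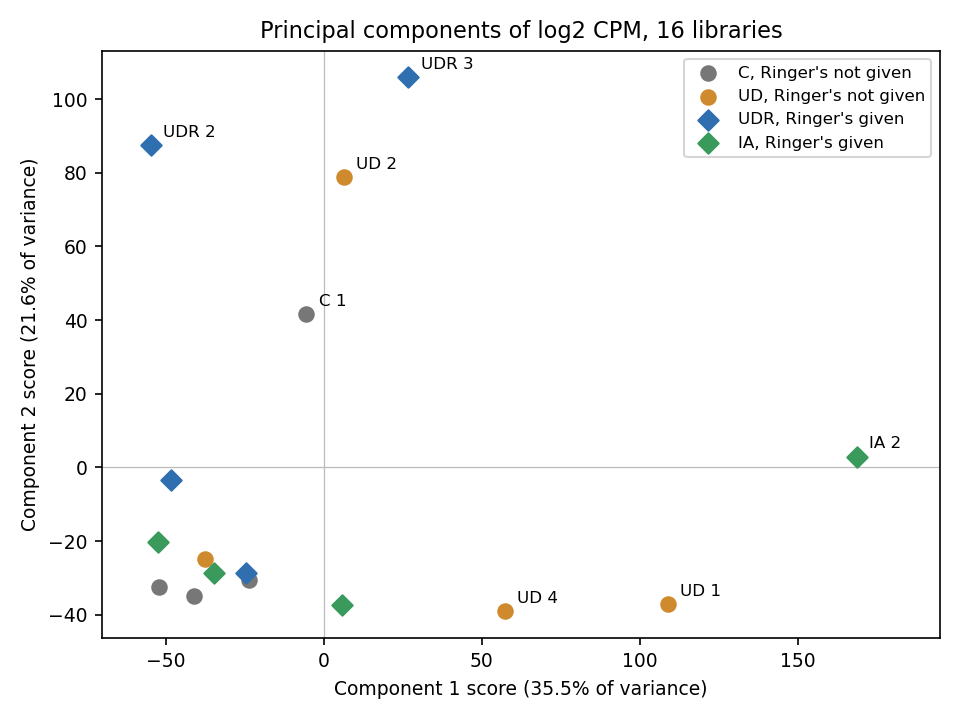
Scores of the 16 libraries on the first and second principal components of log2 CPM. Circles are libraries without Ringer's solution, diamonds those with it; the libraries far from the main group, among them IA 2 at 168.7 and UD 1 at 108.9 on component 1, come from both sets.

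No gene passed the test between amnion with and without the solution. The comparison was the mean of UDR and IA minus the mean of C and UD on the log2 scale, fitted by edgeR's quasi-likelihood test on all 4 groups. It called 0 of the 13569 genes tested at an adjusted p under 0.05 (0%), and the smallest adjusted p was 0.9997. DESeq2 called 0 as well (smallest adjusted p = 0.203), and limma-voom weighting libraries by quality called 0 (0.0888). Their counts at an unadjusted p under 0.05 were 466 and 3973, with the same 13569 genes as input. DESeq2 did not give a p-value for all of these, as ENSOARG00000000432 had none. At an unadjusted p under 0.05 edgeR found 306 genes (2.26%), 180 higher (1.33%) and 126 lower (0.929%) where the solution was given. The balance turned to 112 higher and 197 lower without UDR 3, 276 and 391 without IA 2, 172 and 192 without UD 2, 112 and 116 without C 2, 50 and 58 with the lane as a factor, 121 and 155 with the replicate number as a block, and 94 and 133 with unweighted limma-voom. With upper quartile scaling it was 150 and 143. A share of 5% of the genes tested would be 678.45 genes. With all libraries fewer genes than that stood out by edgeR and DESeq2, and more by quality-weighted limma-voom. All 8 libraries with the solution lay above or below all 8 without it in 0 genes (0%). In the gene that came nearest among those higher, the libraries with the solution were above in 92.2% of the 64 pairs, and in the nearest among those lower they were above in 6.25% of them.

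**Figure D2:**
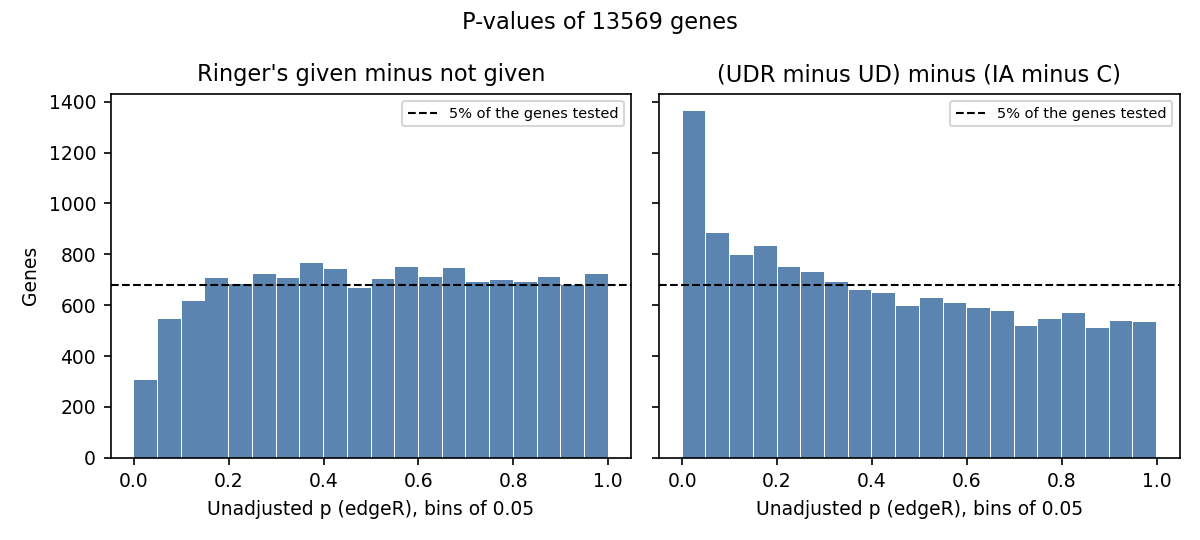
Number of genes by unadjusted p-value from edgeR in bins of 0.05, with a dashed line at 5% of the genes tested. For Ringer's solution given minus not given (left) the lowest bin holds 306 genes, below the line; for the difference between UDR minus UD and IA minus C (right) it holds 1364, above it.

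Against the spread between animals, most differences were bounded within 2-fold, though only 25.5% of them in the lowest abundance quartile. The 95% intervals take no account of the sequencing lane, which was almost confounded with the solution. The median log2 difference was 0.021, and the middle of the distribution ran from -0.18 (lower quartile) to 0.18 (upper quartile). The median SE was 0.28, and 95% intervals had a median reach of 0.60 each way, or 1.52-fold. For 8423 genes (62.1%) the whole interval lay within 2-fold of no difference. The fitted difference was over 2-fold in 543 genes, 297 higher and 246 lower with the solution, and 133 of these had an unadjusted p under 0.05.

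The gene with the smallest p, ENSOARG00000007806, was high in UDR and near the level of the other groups in IA. Its level, in CPM scaled by the TMM factors, was 5.10, 6.54, 8.05 and 5.29 in C 1 to C 4, 7.26, 9.57, 12.9 and 10.3 in UD 1 to UD 4, 25.1, 27.6, 120.2 and 16.04 in UDR 1 to UDR 4, and 8.32, 13.2, 8.37 and 7.14 in IA 1 to IA 4. All 4 UDR libraries lay above every library without the solution, while 2 of the 4 IA libraries lay within the range of UD, IA 4 just below it and IA 2 just above it. The log2 difference with the solution was 1.40 (SE 0.36, 95% interval 0.64 to 2.17; adjusted p = 0.9997 by edgeR), so it did not pass. UDR minus UD was 2.24 (SE 0.52; adjusted p = 0.4996) and IA minus C 0.57 (SE 0.50; adjusted p = 0.9996). The difference between these was 1.67 (SE 0.71; adjusted p = 0.425 by edgeR). Without UDR 3, the highest library, the log2 difference with the solution was 0.88 (SE 0.20; adjusted p = 0.953 by edgeR). DESeq2 gave 0.89 there (adjusted p = 0.101). With all libraries the adjusted p was 0.805 by DESeq2, 0.0888 by quality-weighted limma-voom and 0.9986 by unweighted limma-voom.

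ENSOARG00000000432, with the second smallest p among the higher genes, was extremely high in a single library. It stood at 0.134, 2.53, 11.1 and 1.48 CPM in C, 0.739, 1.95, 20.6 and 15.7 in UD, 14.3, 12.6, 8865 and 15.2 in UDR, and 24.8, 16.2, 31.2 and 21.1 in IA, each in the order of the replicate numbers. UDR 3 alone held 221660 counts of it, against 2 to 492 in the other libraries. All 8 libraries with the solution lay above the 6 lowest without it, and UD 3 and UD 4 overlapped them. The log2 difference was 5.23 (SE 1.44; adjusted p = 0.9997 by edgeR), and 1.57 (SE 0.73; adjusted p = 0.953) without UDR 3. By limma-voom it was 2.35 with quality weights (adjusted p = 0.117) and 3.88 without them (adjusted p = 0.9986). DESeq2 gave 5.25 with no p-value for this gene, and 1.58 (adjusted p = 0.929) without UDR 3. The level of this gene also moved with the sequencing lane. The 6 libraries of lane 1, all without the solution, were at 0.134 to 11.1 CPM, and the 10 libraries of lanes 2 and 3, UD 3 and UD 4 among them, were at 12.6 CPM or more. With the lane as a factor the log2 difference was -4.83 (unadjusted p = 0.0462, adjusted p = 0.999999 by edgeR). That factor also takes up differences between animals, so the part of the lane alone was not tested.

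ENSOARG00000018006, the lower gene with the smallest p, had a small difference that no single library carried. It was at 30.4, 28.4, 38.5 and 43.5 CPM in C, 34.8, 26.4, 33.7 and 31.8 in UD, 18.0, 16.04, 22.6 and 26.0 in UDR, and 27.6, 24.5, 28.0 and 29.9 in IA. All 8 libraries with the solution were below the median of those without it, 32.8 CPM, and 5 of the 8 were below the lowest of them, UD 2. The mean was 24.1 CPM with the solution (SD 4.92, n = 8) and 33.4 without it (SD 5.55, n = 8). The log2 difference of -0.49 (SE 0.14, 95% interval -0.79 to -0.19) had an adjusted p of 0.9997 by edgeR. It was -0.62 (SE 0.20) between UDR and UD and -0.36 (SE 0.20) between IA and C, and these differed by -0.26 (SE 0.28; adjusted p = 0.793 by edgeR). With any 1 library left out the log2 difference stayed between -0.55 and -0.43. With all libraries its adjusted p was 0.805 by DESeq2, 0.0888 by quality-weighted limma-voom and 0.9986 by unweighted limma-voom.

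ENSOARG00000020045 was at 12.3, 14.2, 13.5 and 36.3 CPM in C, 20.1, 22.2, 5.59 and 25.6 in UD, 3.35, 2.48, 4.36 and 11.4 in UDR, and 4.38, 11.9, 11.2 and 11.2 in IA. All 8 libraries with the solution were below the lowest C library, at 12.3 CPM, while UD 3, at 5.59, lay among them. The mean was 7.53 CPM with the solution (SD 4.21, n = 8) and 18.7 without it (SD 9.51, n = 8). The log2 difference was -1.38 (SE 0.40, 95% interval -2.24 to -0.52; adjusted p = 0.9997 by edgeR). UDR minus UD was -1.77 (SE 0.58) and IA minus C -0.98 (SE 0.56), and these differed by -0.79 (SE 0.79; adjusted p = 0.777 by edgeR). With 1 library left out the log2 difference ranged from -1.71 without UDR 4 to -1.12 without C 4. With all libraries its adjusted p was 0.805 by DESeq2, 0.0888 by quality-weighted limma-voom and 0.9986 by unweighted limma-voom.

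**Figure D3:**
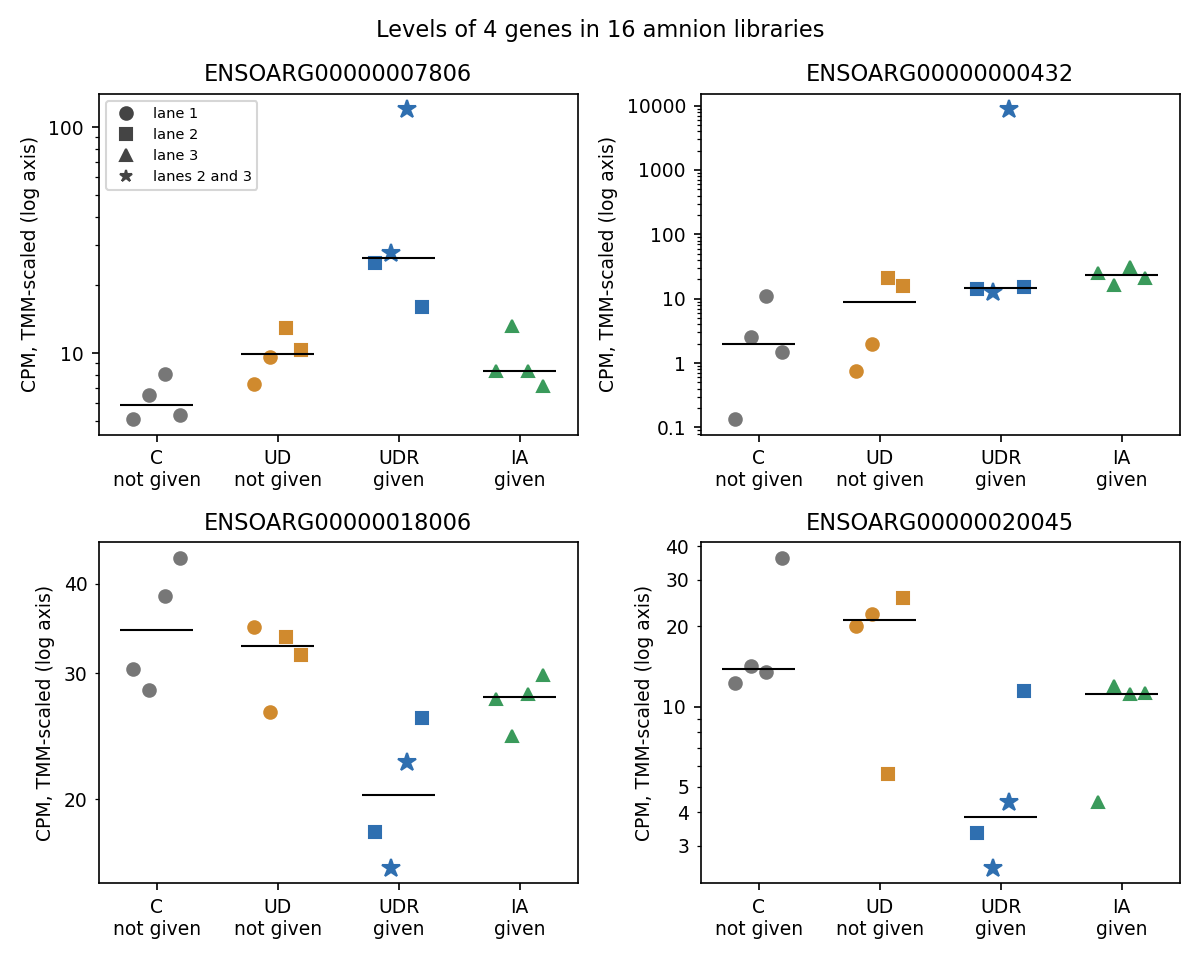
Level of the 4 genes with the smallest p among higher (top) and lower (bottom) genes, in TMM-scaled CPM on a log axis, 1 symbol per library and the group median as a line, with the symbol showing the sequencing lane. UDR 3 stands at 120.2 and 8865 CPM in the upper panels; in the lower panels the UDR and IA libraries lie below most C and UD libraries.

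The 306 genes with the smallest p-values were uneven in the libraries that carried them. They were chosen by this comparison, so the following describes them and tests nothing. Of the 180 higher genes, 123 (68.3%) had their highest level in UDR 3, against 14.6% of all genes tested. Set against the C mean, their average log2 CPM was higher by 3.36 in UDR 3, by 0.72 to 0.995 in the other UDR libraries, 0.44 to 1.24 in IA and 0.54 to 0.72 in UD. UD thus stood above C in these genes without the solution. The 126 lower genes were more even: relative to C they stood at -1.45 to -0.77 in UDR and -0.73 to -0.31 in IA, but UD was split, with UD 1 at 0.78 and UD 4 at 0.72 against UD 2 at -0.35 and UD 3 at -0.58. With UDR 3 left out, 57 of the 180 and 77 of the 126 kept an unadjusted p under 0.05 and their direction. With each of the 16 libraries left out in turn, 56 of the 306 did so every time, 34 higher and 22 lower.

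With drainage (UDR minus UD) and without it (IA minus C), many genes lay in opposite directions where the solution was given. The 2 comparisons share no library. Across 13569 genes their log2 differences had a Pearson correlation of -0.42 and a Spearman correlation of -0.30, and 40.8% of the genes had the same sign in both. Genes vary together and are not independent replicates, so these values are a description of the 16 libraries. At an unadjusted p under 0.05 UDR minus UD had 1206 genes (8.89%), 349 higher (2.57%) and 857 lower (6.32%), and IA minus C had 580 (4.27%), 501 higher (3.69%) and 79 lower (0.582%). The first count was 454 without UD 1, 689 without UD 4 and 2305 without UD 3, and 89 with the lane as a factor. The second was 136 without IA 2, where the balance turned to 64 higher and 72 lower, 374 without C 2, 229 without C 3, 313 without C 4 and 912 without IA 1. It was 293 with the replicate number as a block and 146 with unweighted limma-voom. Both comparisons had 0 genes called by edgeR (0%), with smallest adjusted p-values of 0.4996 and 0.9996. DESeq2, given the same 13569 genes, called 144 in UDR minus UD, 7 higher and 137 lower, and 5 in IA minus C. Quality-weighted limma-voom called 1633 in UDR minus UD, 841 higher and 792 lower, and 0 in IA minus C. In all, 181 genes had an unadjusted p under 0.05 in both, of which 3 had the same direction and 178 opposite directions. Without IA 2 there were 19 such genes, 7 in the same direction and 12 in opposite ones, and there were 43 without C 3 (1 and 42) and 66 without C 4 (2 and 64). With any other single library left out there were 105 to 339. Of the 178 found with all libraries, 175 were lower in UDR than in UD and higher in IA than in C.

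The opposite directions were clearest among genes lower in UDR than in UD. Of those 857 genes, 728 (84.9%) were higher in IA than in C, where 48.1% of all genes were, and their median log2 difference there was 0.95 against -0.016 over all genes. This rested largely on IA 2. Without it, 676 (63.1%) of 1071 genes lower in UDR than in UD were higher in IA than in C, with a median of 0.16. Over all genes the share was then 47.5% and the median -0.018. Of 516 genes higher in UDR than in UD, 314 (60.9%) were then also higher in IA than in C. Of the 1071, 7 were higher in IA than in C at an unadjusted p under 0.05, against 175 of the 857. All genes at that p in IA minus C fell from 580 to 136. With all libraries, 169 (48.4%) of the 349 genes higher in UDR than in UD were higher in IA than in C. Read the other way, 64 (12.8%) of the 501 genes higher in IA than in C were higher in UDR than in UD, where 53.6% of all genes were. The groups of 4 did not overlap in 341 genes (2.51%) between UDR and UD and in 254 (1.87%) between IA and C. In 0 genes did both pairs of groups separate in the same direction, and in 3 they separated in opposite directions (0.0221%). The share of genes that would separate without any effect was not computed, so these counts say nothing on the directions.

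**Figure D4:**
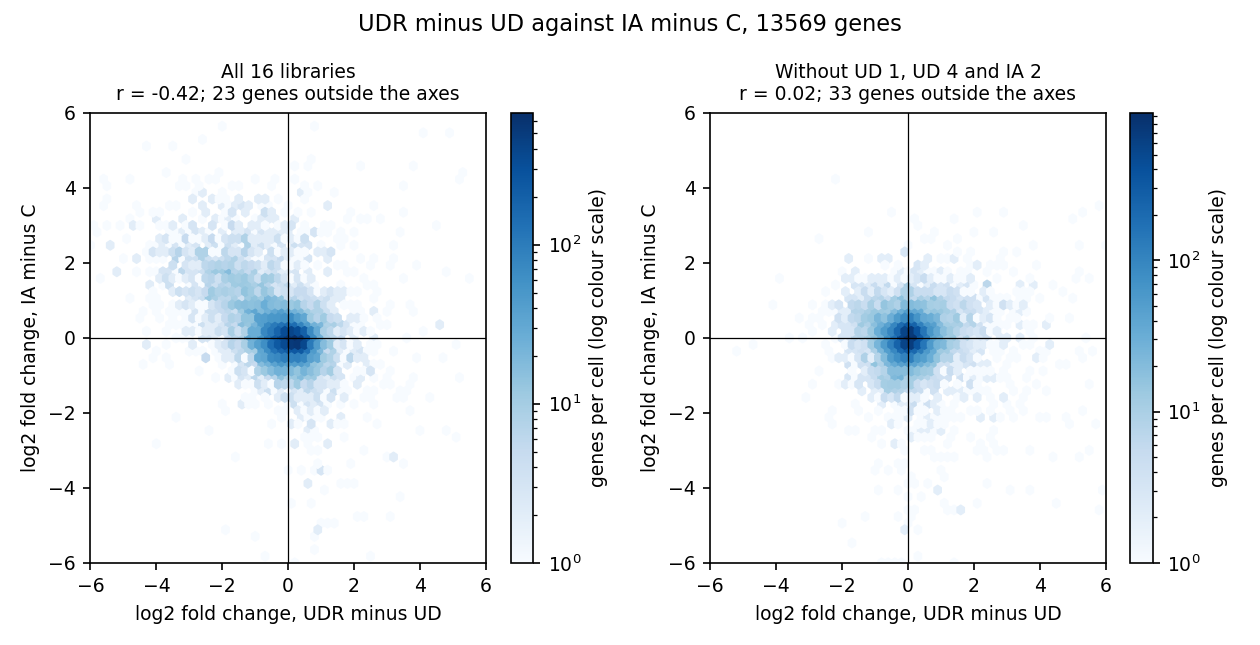
Log2 difference of UDR minus UD (horizontal) and IA minus C (vertical) for 13569 genes, with the number of genes in each cell as colour on a log scale. With all 16 libraries (left) a tail of genes runs to the upper left, lower in UDR than in UD and higher in IA than in C, and the correlation is -0.42; without UD 1, UD 4 and IA 2 (right) the tail is not seen and the correlation is 0.020.

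The test of the difference between the 2 comparisons, the interaction of solution and drainage, called 0 genes by edgeR (0%), with a smallest adjusted p of 0.218. It had 1364 genes at an unadjusted p under 0.05 (10.1%), 1149 of them below 0 (8.47%) and 215 above (1.58%). DESeq2, given the same 13569 genes, called 461, of which 440 were below 0. By quality-weighted limma-voom the direction was even: 3811 genes had an unadjusted p under 0.05, 1884 below 0 and 1927 above. By unweighted limma-voom there were 976, 724 below 0 and 252 above. The 1149 genes were chosen by this comparison, which favours high values in UD and IA, so the following describes them and tests nothing. They were high in 3 libraries: their average log2 CPM exceeded the C mean by 2.76 in UD 1, 2.05 in UD 4 and 2.91 in IA 2. It lay 1.15 above in IA 4, and between -0.79 and 0.48 in the other UD, UDR and IA libraries. These are the 3 libraries that stood apart on the first principal component. Without UD 1, UD 4 and IA 2 edgeR had 191 genes at an unadjusted p under 0.05 and DESeq2 called 2, and the correlation between the 2 comparisons was 0.020. These 3 were picked after seeing the data, and leaving them out left fewer animals in UD and IA. The lower counts therefore describe these libraries and test nothing. Leaving out 1 of the 3, DESeq2 called 119 without UD 1, 221 without UD 4 and 80 without IA 2, and edgeR had 844, 1069 and 848 genes at an unadjusted p under 0.05. The correlation was -0.26 without UD 1, -0.41 without UD 4 and -0.15 without IA 2. With each library left out in turn, 622 of the 1364 genes kept an unadjusted p under 0.05 and their direction every time, 580 of them below 0. The same 3 libraries also had the highest shares of counts in their 10 most abundant genes of all 16 libraries, 21.3% in UD 1, 17.1% in UD 4 and 22.7% in IA 2, against 7.28% to 14.99% in the others. The part of this difference in makeup in the interaction was not tested.

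**Figure D5:**
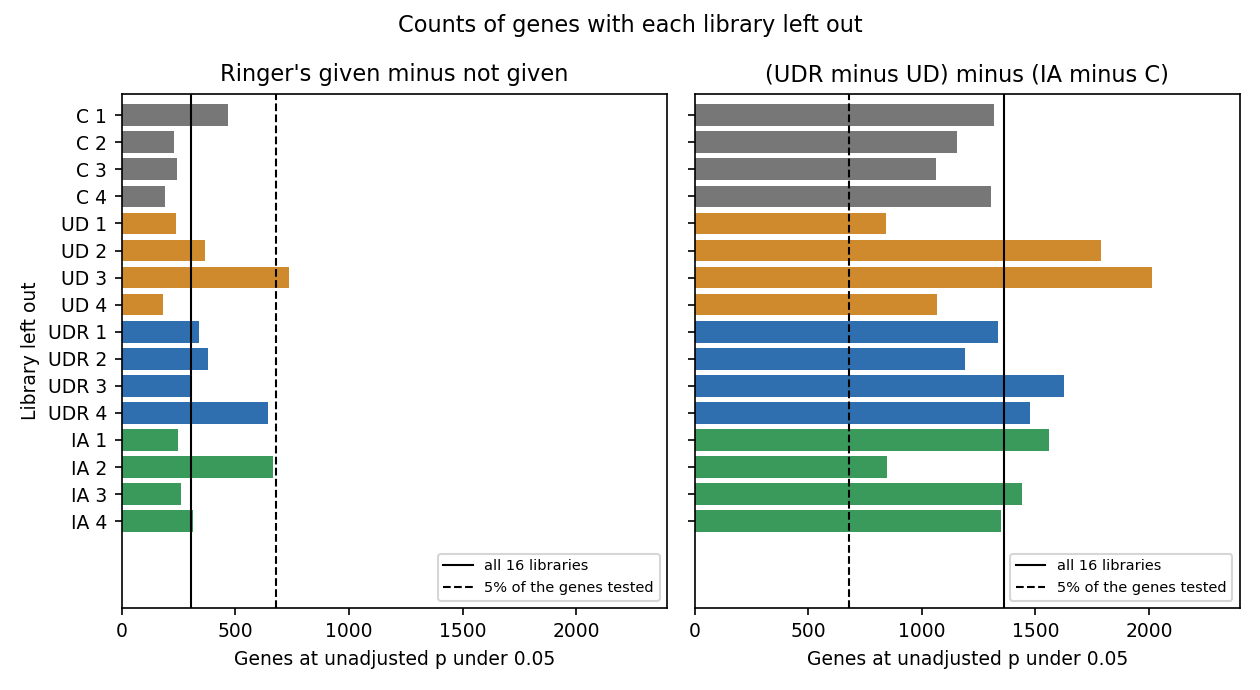
Number of genes at an unadjusted p under 0.05 by edgeR with each library left out, coloured by group, with the number for all 16 libraries as a solid line and 5% of the genes tested as a dashed line. The pooled comparison (left) runs from 179 to 736 genes and the interaction (right) from 844, without UD 1, to 2012, without UD 3.

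The pooled comparison also moved with single libraries. Its number of genes at an unadjusted p under 0.05 ran from 179 without UD 4 and 190 without C 4 to 644 without UDR 4, 667 without IA 2 and 736 without UD 3, and was 466 without C 1, with 0 called by edgeR in each case. The smallest adjusted p in any of these was 0.793. DESeq2 called 2 genes without UDR 3, 1 higher and 1 lower, with a smallest adjusted p of 0.00083. Without UDR 3 and IA 2 the number was 833, 280 higher and 553 lower, with a smallest adjusted p of 0.683 by edgeR. Only 135 of these 833 were among the 306.

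Weakly expressed genes had the widest errors. In the lowest abundance quartile (median 2.85 CPM) the median SE of the pooled comparison was 0.52 and 25.5% of genes had an interval within 2-fold of no difference. In the highest quartile (median 110.6 CPM) the median SE was 0.22 and the share 80.2%. The share of genes at an unadjusted p under 0.05 was 3.12%, 2.36%, 1.86% and 1.68% from the lowest quartile to the highest. In the highest quartile 55 of 57 such genes were higher with the solution, and in the lowest 50 of 106. For the interaction the shares were 18.3%, 10.1%, 6.31% and 5.51%.

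When the spread of log2 CPM was split between terms and summed over the genes, the solution accounted for 4.22%, drainage for 5.98%, the interaction for 10.9% and the spread between animals of 1 group for 78.9%. Each of the first 3 takes 1 of 15 degrees of freedom, and an even split would give 6.67%. Per degree of freedom the spread within groups took 6.58%, so the solution took less than the spread between animals treated alike. Drainage, urine drained minus urine kept, had 488 genes at an unadjusted p under 0.05 (3.6%), 375 higher (2.76%) and 113 lower (0.833%) where urine was drained, and 0 called by edgeR (0%), with 10 called by DESeq2. With 1 library left out the share of the solution ran from 3.63% without UD 4 to 6.34% without IA 2.

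The lanes of the sequencer were almost confounded with the solution. Lane 1 held 6 libraries, all without the solution, lane 3 held the 4 IA libraries, all with it, and lane 2 held the 4 UDR libraries with UD 3 and UD 4. A comparison within a lane was therefore possible only in lane 2, for UDR against 2 UD libraries, where no gene passed edgeR's test (0 called). Of the 13569 genes tested there, 542 had an unadjusted p under 0.05, fewer than the 678.45 that make 5%. UDR was the higher group in 81 of them and the lower in 461. Fitted values within lane 2 had the same sign as the pooled ones, with log2 differences of 2.01 (SE 0.91) for ENSOARG00000007806, 6.95 (SE 3.69) for ENSOARG00000000432, -0.68 (SE 0.35) for ENSOARG00000018006 and -1.59 (SE 0.84) for ENSOARG00000020045 and adjusted p-values of 0.999 each. The value of ENSOARG00000000432 there rests on UDR 3 alone: UDR 1, UDR 2 and UDR 4, at 14.3, 12.6 and 15.2 CPM, lay below both UD 3 at 20.6 and UD 4 at 15.7. Of the 306 genes, 179 of the 180 higher and 122 of the 126 lower ones had the same direction within lane 2, where 55.1% of all genes were higher in UDR. The 4 UDR libraries, UD 3 and UD 4 also helped to choose the 306 and the 4 named genes, so these shared directions test nothing. Within lane 2, 2 of the 180 and 36 of the 126 had an unadjusted p under 0.05 by edgeR. In a fit that added the lane as a factor, 108 genes had an unadjusted p under 0.05 in the pooled comparison, 4 of them among the 306, and 0 were called by edgeR. In that fit the log2 difference was -0.46 for ENSOARG00000007806 and -4.83 for ENSOARG00000000432, the reverse of the values above, and -0.42 for ENSOARG00000018006 and -0.32 for ENSOARG00000020045. The term links lane 1 to lane 2 through different UD animals and lane 2 to lane 3 through different UDR animals, with UDR 2 and UDR 3 entered by their lane 3 runs, so differences between such animals enter it too.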

How the data were processed

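Polyadenylated RNA of amnion was sequenced on an Illumina HiSeq instrument, per the labels' protocols. The authors deposited counts of reads per gene, in 18 columns of 1 library and lane each, all matched to a sample by name. Per the submitters' processing notes, FastQC 0.11.3, HTSeq 0.6.1 and DESeq2 were used. Aligner, build, annotation and strandedness were not given in the sources used here, so overlapping and near-identical genes are uncertain.

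The lane 2 and lane 3 runs of UDR 2 and UDR 3 were summed: they differed at 1.03 and 1.06 times counting error (chi-square per degree of freedom), with 0 and 2 genes differing. Genes with at least 1 CPM in at least 4 of the 16 libraries were kept, 13569 in all. Counts were scaled by TMM and tested with edgeR 4.0.16 (R 4.3.3; quasi-likelihood F test, robust, 4 groups in 1 fit, two-sided, Benjamini-Hochberg over all genes, threshold 0.05). Levels are TMM-scaled CPM, and log2 CPM used a prior count of 2. The script was tested on simulated counts. Single values per library were tested by exact permutation. P-values measure the spread between animals, 1 library each.

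Named genes are the 2 higher and 2 lower with the smallest p, called or not. The comparison and lists were chosen with earlier results of these data known. The 7 gene lists could not be applied, since 0 IDs matched a symbol. Alternatives were RLE and upper quartile scaling, other filters, DESeq2 1.42.0, limma-voom (limma 3.58.1), a replicate block, a lane term, first runs only, 2 groups in 1 fit, and libraries left out. Leaving out sets of libraries, also with DESeq2, was chosen after seeing the data.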

Additional observations from a re-analysis of the deposited data

Results flagged for a closer look

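The highest or lowest value in a group of 4 was singled out where its distance to the nearest other value, as a share of the range of the group, exceeded the 95% critical value of Dixon's test for 4 values. Of 40 groups examined, 6 held such a value. That critical value would give about 2, but the number is no yardstick here. The 4 named genes were chosen from these data, and the principal components were fitted to them. The 6 values are therefore a description and test nothing. On the second principal component C 1 scored 41.7, against -34.8 to -30.5 in the other controls, and UD 2 scored 78.8, against -39.0 to -24.8 in the other UD libraries. ENSOARG00000007806 was at 120.2 CPM in UDR 3, against 16.04 to 27.6 in the other UDR libraries. ENSOARG00000000432 was at 8865 CPM in UDR 3, against 12.6 to 15.2. ENSOARG00000020045 was at 36.3 CPM in C 4, against 12.3 to 14.2 in the other controls, and at 4.38 CPM in IA 1, against 11.2 to 11.9 in the other IA libraries. No gene passed the edgeR test of a difference between UDR minus UD and IA minus C, where 1364 had an unadjusted p under 0.05 and DESeq2 called 461.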

How the results depend on the processing

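The pooled comparison called 0 genes under every edgeR and limma-voom alternative and under DESeq2, except that DESeq2 called 2 without UDR 3. Its 306 genes at an unadjusted p under 0.05 became 594 without the filter on low counts, 108 with the lane term, 466 with DESeq2, 512 with DESeq2 without UDR 3, 3973 with quality-weighted limma-voom, 191 without UD 1, UD 4 and IA 2, 833 without UDR 3 and IA 2, and 179 to 736 with 1 library left out. Called genes in UDR minus UD were 144 with DESeq2 and 1633 with quality-weighted limma-voom, and 5 in IA minus C with DESeq2. The interaction had 461 calls with DESeq2, 119 without UD 1, 221 without UD 4, 80 without IA 2, 2 without all of these and 539 without UDR 3. Its 1364 genes at an unadjusted p under 0.05 became 3811 with quality-weighted limma-voom, 1884 of them below 0 and 1927 above. They became 191 by edgeR and 271 by DESeq2 without UD 1, UD 4 and IA 2, and 844 to 2012 with 1 library left out. Drainage had 15 calls with the lane term and 10 with DESeq2. The lane term gave -0.46 for ENSOARG00000007806 and -4.83 for ENSOARG00000000432. The correlation of UDR minus UD with IA minus C was 0.020 without UD 1, UD 4 and IA 2, -0.15 without UDR 3 and IA 2, and -0.56 to -0.15 with 1 library left out. The variance share of the solution was 3.63% to 6.34% with 1 library left out. The cause of these changes was not tested.

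With the replicate number as a block, the pooled comparison called 0 genes and had 276 at an unadjusted p under 0.05, 169 of them among the 306. Deviations of the 24 same-numbered pairs correlated at -0.57 to 0.64, with a median of -0.0075, and 10 of them were over 0.1. Of the 16 libraries, 7 correlated best with their own number. The count expected without pairing was not computed, so these values do not decide whether the numbers pair the animals. Weakly expressed genes limit the precision, with a median SE of 0.52 in the lowest abundance quartile.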
